A study of Mus musculus with 8 samples.

Results

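The contractile and cytoskeletal genes of smooth muscle were followed in cultured smooth muscle cells from mouse aorta, which in the vessel wall contract and relax to set its width. They are a list of 50 genes chosen by symbol, each matched to its row of the deposited table through its Entrez gene identifier, and 49 were found among the 24704 genes measured. Rock2 was not analysed here. The 8 arrays came from cultures that had an adenovirus for 24 h, followed by 72 h in 10 µg/ml of cholesterol. On 4 arrays the virus was titled AdN5, with the genotype given as NFAT5 overexpression. On the other 4 it was titled AdPl, with the genotype given as control. Virus and cholesterol were thus common to both groups, and neither an uninfected nor a cholesterol-free culture was part of the comparison. NFAT5 switches on genes when cells meet high salt or osmolarity, and by the labels the 2 groups compare its overexpression with a control under a cholesterol load.

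Smooth muscle shortens when actin and myosin filaments slide past each other, after calcium and calmodulin activate the kinase that phosphorylates the myosin regulatory light chain. A phosphatase reverses that step, other kinases restrain the phosphatase, and cGMP-dependent protein kinase favours relaxation. Many genes of this apparatus carry CArG boxes, to which the serum response factor SRF binds with its cofactor myocardin, and vascular smooth muscle cells in culture are known to lose part of this programme.

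The CArG box, a run of A and T bases between CC and GG, was looked for in the RefSeq promoter windows of mouse assembly GRCm38.p6, which reach from 250 bases before to 50 bases after a gene's start. A window was held for 42 of the 50 genes. Actg2, Myh11, Rock1, Tagln, Nexn, Itga7, Myocd and Aoc3 had none in the table. At least 1 exact CArG box lay in the windows of 7 of the 42 genes (16.7%), against 488 of all 27025 genes (1.81%). The pattern reads the same on both strands. The stretch before the start is shown for 4 genes on which the results turn, 5′ to 3′ in the direction of the gene, with CArG boxes in capitals. Acta2 is the classical smooth muscle marker, Fhl1 and Pdlim3 are among the genes with the smallest p-values below, and Srf encodes the factor itself.
Acta2, chr19:34255374-34255623, minus strand: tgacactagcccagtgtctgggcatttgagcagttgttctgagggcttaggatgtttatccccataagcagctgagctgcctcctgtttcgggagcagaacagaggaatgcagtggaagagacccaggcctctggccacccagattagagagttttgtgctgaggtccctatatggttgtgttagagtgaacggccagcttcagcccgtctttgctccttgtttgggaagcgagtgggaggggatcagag
Fhl1, chrX:56779433-56779682, plus strand: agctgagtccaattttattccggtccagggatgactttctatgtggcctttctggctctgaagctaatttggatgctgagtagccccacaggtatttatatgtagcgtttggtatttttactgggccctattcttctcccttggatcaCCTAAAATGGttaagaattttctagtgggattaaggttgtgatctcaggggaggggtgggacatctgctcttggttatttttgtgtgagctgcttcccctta
Pdlim3, chr8:45885237-45885486, plus strand: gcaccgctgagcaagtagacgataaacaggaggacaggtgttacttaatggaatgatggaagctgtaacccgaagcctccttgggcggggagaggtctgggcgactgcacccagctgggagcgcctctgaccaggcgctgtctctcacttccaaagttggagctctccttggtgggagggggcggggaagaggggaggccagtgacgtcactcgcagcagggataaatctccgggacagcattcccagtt
Srf, chr17:46556163-46556412, minus strand: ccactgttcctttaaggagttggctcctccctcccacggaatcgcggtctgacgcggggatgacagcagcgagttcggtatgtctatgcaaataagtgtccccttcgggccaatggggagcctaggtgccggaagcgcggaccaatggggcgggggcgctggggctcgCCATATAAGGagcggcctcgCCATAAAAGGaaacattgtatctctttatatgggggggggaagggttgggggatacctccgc

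These stretches held 0 exact boxes for Acta2 and Pdlim3, 1 for Fhl1 and 2 for Srf. Near matches were not counted. The Acta2 stretch holds ccctatatgg and ccttgtttgg, which each differ from the pattern by 1 base, so a count of 0 does not mean that SRF has no site there. Fhl1 has a second listed start, whose window held 0. The boxes of the other genes are shown with the 10 bases on either side. Fhl2, which has 2 listed starts, had 1 box at each.
Fhl2, chr1:43196838-43196867, minus strand, 96 bases before the start: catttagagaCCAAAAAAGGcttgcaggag
Fhl2, chr1:43163973-43164002, minus strand, 31 bases before the start: gcgcgtgtgtCCTTATATGGtcaaatgact
Myl9, chr2:156775293-156775322, plus strand, 161 bases before the start: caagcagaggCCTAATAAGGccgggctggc
Cnn2, chr10:79988534-79988563, plus strand, 56 bases before the start: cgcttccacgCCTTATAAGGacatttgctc
Myl6, chr10:128493040-128493069, minus strand, 50 bases before the start: gctcttacttCCTTATATGGgcaggaccta
Vcl, chr14:20929161-20929190, plus strand, 227 bases before the start: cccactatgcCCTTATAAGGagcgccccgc

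The TonE, the tonicity element bound by NFAT5, was searched in the same windows on both strands. It was found in 2 of the 42 genes (4.76%), against 1552 of all 27025 genes (5.74%). Both were tropomyosin genes, shown here with the element in capitals. No TonE overlapped a CArG box in these windows.
Tpm3, chr3:90072402-90072432, plus strand, 239 bases before the start: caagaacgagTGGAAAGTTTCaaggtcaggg
Tpm1, chr9:67049281-67049311, minus strand, 88 bases before the start: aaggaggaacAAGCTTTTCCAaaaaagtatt

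A match of letters in a window is a description and shows no binding.

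The values are log2 expression after RMA, 1 probe set per gene, and a difference of 1 is a factor of 2. Pairs of arrays correlated across genes at 0.990 to 0.993 within groups and at 0.989 to 0.992 between them. In a principal component analysis of all genes the first component, with 22.0% of the variance, set the groups apart. The AdN5-labelled arrays lay between 7.49 and 19.9 on it and the AdPl arrays between -17.1 and -6.80. On the second component AdN5 replicate 4 (24.7) and AdPl replicate 3 (14.2) stood at the positive end, with the other arrays between -19.5 and 0.337. The 8 arrays limit the precision, and the labels do not say whether replicates were separate cultures. The p-values therefore rest on the spread among these arrays alone, and that spread may be technical. The log2 values of Nfat5 itself were 7.06, 6.95, 6.98 and 6.88 in the AdN5-labelled arrays, against 7.06, 7.22, 7.11 and 7.25 in the AdPl arrays. Its difference was -0.19 ± 0.078 (SE; adjusted p = 0.360 in limma). Permuting the labels exactly, two-sided, gave p = 0.0571, where 0.0286 is the smallest possible. The targeted transcript was thus not higher in the arrays labelled AdN5, and every direction below rests on those labels. Where the probes lie is not given in the sources used here.

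Of the smooth muscle genes by which the cell type can be checked, Acta2, Tagln, Cnn1, Smtn, Lmod1 and Myh11 had group means above 3.76, the middle value of an array, in both groups. Myocd and Des lay below it. In all, 7 of the 49 genes had a mean over all arrays below it, namely Mylk, Des, Itga8, Myocd, Kcnmb1, Pln and Casq2. They are called dim here.

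Across the apparatus the differences were small, and Pdlim3, which encodes a PDZ and LIM domain protein that binds alpha-actinin, was the single gene past the threshold. Its fitted level fell to 0.723 of the AdPl level in the AdN5-labelled arrays, where all 4 of its values lay below the array median. In limma, at an adjusted p under 0.05 over all genes, 1 of the 49 genes was called lower and 0 were called higher, and 48 did not pass. Of all 24704 genes 0.777% were called, 0.413% lower and 0.364% higher. The median log2 fold change of the 49 genes was -0.019, against 0.0042 over all genes, with 22 genes above 0 and 27 below.

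At an unadjusted p under 0.05 there were 14 of the 49 genes (28.6%), 9 lower and 5 higher, against 12.5% of all genes, 6.29% lower and 6.24% higher. Under 0.01 there were 8, against 4.48% of all genes. Brighter genes pass more often, and 43 of the 49 lay above the median level of all genes. Among those 43 the share was 30.2%, against 17.4% of all genes above that level. The values of the groups did not overlap for 13 of the 49 genes (26.5%), 8 of them lower and 5 higher, against 8.78% of all genes, 4.56% lower and 4.22% higher. Above the median level it was 12 of 43 (27.9%), against 14.4%. The 95% interval of the fold change lay within 1.5-fold in either direction for 41 of the 49 genes (83.7%), against 87.1% of all genes. The 8 with wider intervals were Myl6, Cnn1, Tpm3, Pdlim3, Prkg1, Kcnmb1, Pln and Aoc3.

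**Figure D1:**
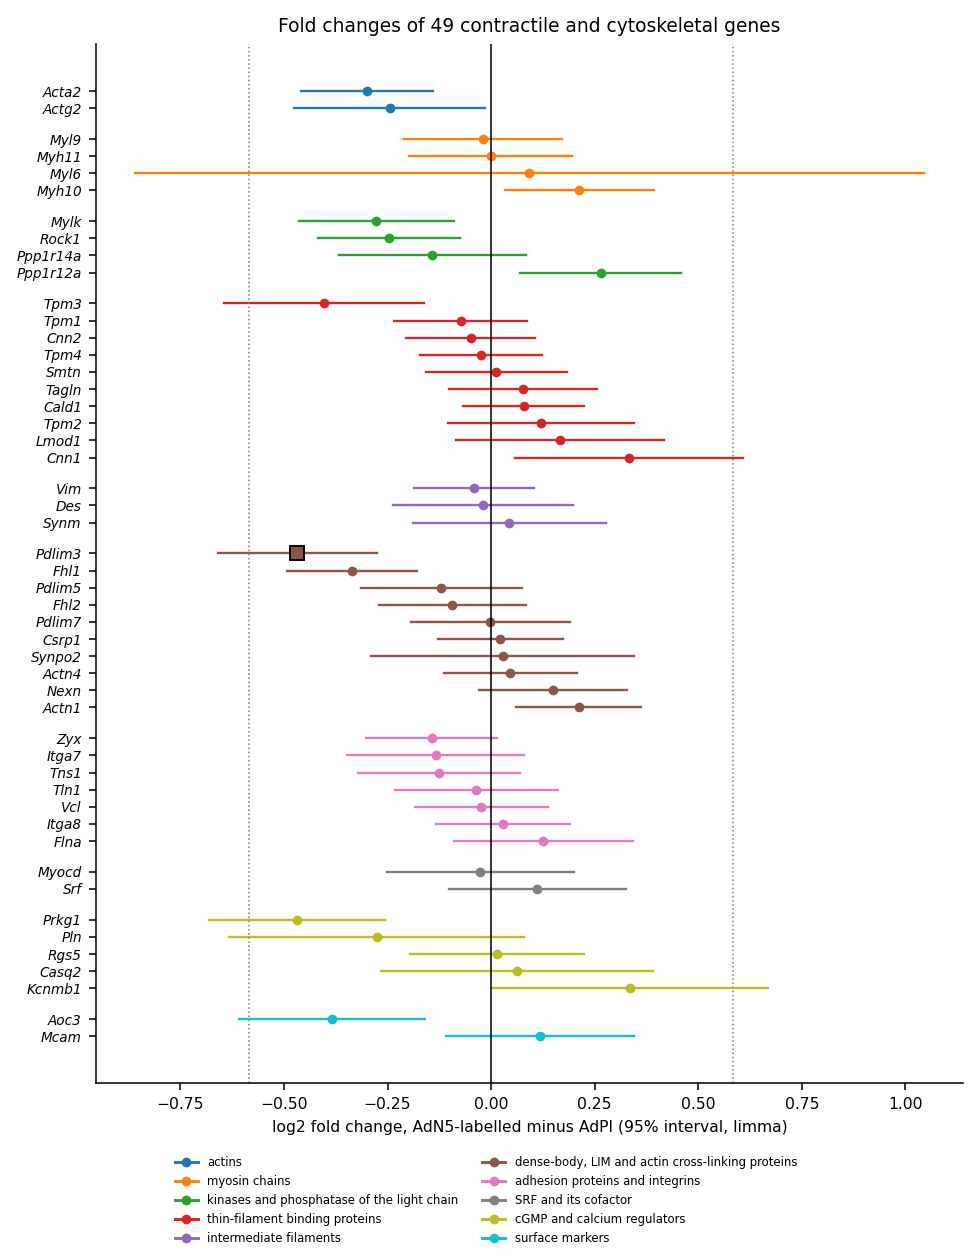
Log2 fold changes (AdN5-labelled minus AdPl) of the 49 genes with 95% intervals from limma, grouped and coloured by role; dotted lines mark 1.5-fold in either direction and the square marks the called gene, Pdlim3. Most intervals include 0, Myl6 has the widest, and Pdlim3 and Prkg1 lie farthest to the left.

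Among the 49 genes the log2 fold change ran from -0.47 (Prkg1) to 0.34 (Kcnmb1), against -2.07 to 1.86 over all genes.

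**Figure D2:**
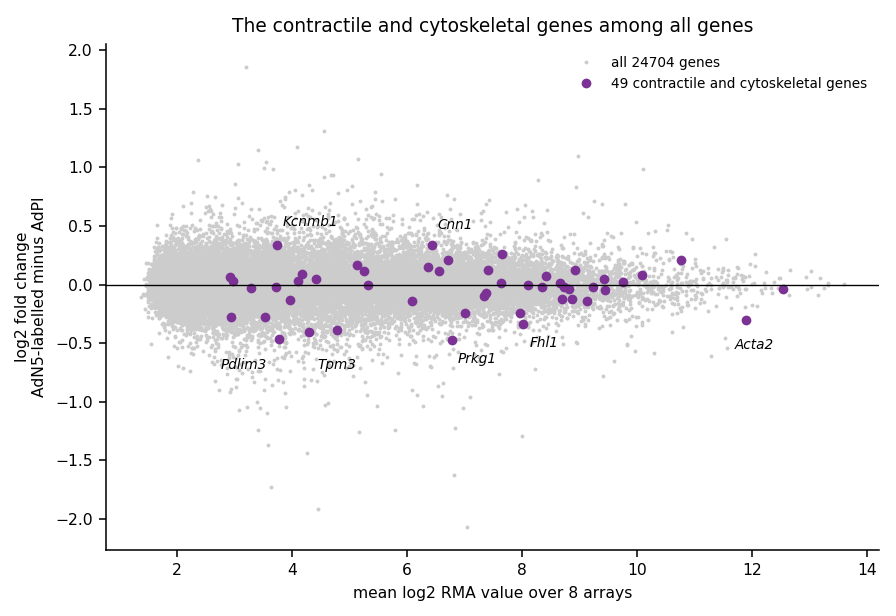
Log2 fold change against the mean log2 RMA value over 8 arrays for all 24704 genes (grey) and the 49 contractile and cytoskeletal genes (purple). The 49 genes run from -0.47 to 0.34, and Acta2 stands apart at the bright end with -0.30.

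Both actin genes were at lower values in the AdN5-labelled arrays, and neither passed the test. Acta2 encodes smooth muscle alpha-actin, the main actin of vascular smooth muscle. Its log2 values were 11.81, 11.68, 11.81 and 11.67 in the AdN5-labelled arrays, against 12.06, 12.02, 12.04 and 12.06 in the AdPl arrays. The groups did not overlap, and the AdPl arrays lay close together (SD 0.021, n = 4). The difference was -0.30 ± 0.071 (SE; adjusted p = 0.113 in limma), with a 95% interval of -0.46 to -0.14, and the AdN5-labelled level was 0.812 of the AdPl level. Acta2 did pass among genes above the median level (adjusted p = 0.0258) and with a variance trend and robust estimation (7.95e-05). It missed the threshold among genes above the lower quartile (0.0685) and with any 1 array left out (0.169 to 0.262). Actg2, the smooth muscle gamma-actin best known from the gut, was at 6.86, 6.69, 7.05 and 6.93 in the AdN5-labelled arrays, against 7.14, 7.09, 7.31 and 6.97 in the AdPl arrays. Here AdN5 replicate 3 lay above AdPl replicate 4, and the difference was -0.25 ± 0.10 (SE; adjusted p = 0.367 in limma). Actins are near-identical in their coding sequence, so the signals of their probe sets may not be fully separate.

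Of the 4 myosin chains measured 0 passed. Myh11, the smooth muscle myosin heavy chain and the most specific marker of the lineage, was at 5.42, 5.23, 5.46 and 5.17 in the AdN5-labelled arrays, against 5.35, 5.35, 5.35 and 5.23 in the AdPl arrays. The groups overlapped fully, with a difference of -0.0012 ± 0.088 (SE; adjusted p = 0.998 in limma) and a 95% interval of -0.20 to 0.20. Myh10, a non-muscle myosin heavy chain of migrating and dedifferentiated cells, was at 6.91, 6.73, 6.86 and 6.76 in the AdN5-labelled arrays, against 6.63, 6.71, 6.49 and 6.58 in the AdPl arrays. All 4 AdN5-labelled arrays were above all AdPl arrays, by 0.21 ± 0.080 (SE; adjusted p = 0.307 in limma). Myl6, an essential light chain, was at 4.74, 4.79, 4.38 and 2.96 in the AdN5-labelled arrays, against 4.96, 4.02, 4.05 and 3.47 in the AdPl arrays. These values were scattered in both groups, with SDs of 0.86 and 0.62 (n = 4 each), where the median over the 49 genes of the larger group SD was 0.12. Its difference of 0.092 has a 95% interval of -0.86 to 1.04. Myl9, the regulatory light chain that the kinase phosphorylates, had a log2 fold change of -0.020.

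The 4 measured genes that set light-chain phosphorylation differed in sign. Mylk, the myosin light-chain kinase, was at 3.48, 3.30, 3.48 and 3.27 in the AdN5-labelled arrays, against 3.65, 3.57, 3.67 and 3.75 in the AdPl arrays. The groups did not overlap, and the difference was -0.28 ± 0.083 (SE; adjusted p = 0.206 in limma). Rock1, a kinase that restrains myosin phosphatase, was at 7.81, 7.77, 7.85 and 7.94 in the AdN5-labelled arrays, against 8.09, 8.12, 8.17 and 7.98 in the AdPl arrays. Its groups did not overlap either, at -0.25 ± 0.076 (SE; adjusted p = 0.220 in limma). It passed with a variance trend and robust estimation (adjusted p = 0.0315). The fit without a trend, not passed with all 8 arrays, gave 0.230 to 0.377 with 1 array left out. Ppp1r12a encodes the subunit that targets myosin phosphatase to myosin, and its values went the other way, at 7.65, 7.86, 7.90 and 7.73 in the AdN5-labelled arrays, against 7.58, 7.54, 7.38 and 7.58 in the AdPl arrays. The AdN5-labelled arrays were all above the AdPl arrays, by 0.26 ± 0.087 (SE; adjusted p = 0.245 in limma). Ppp1r14a, the inhibitor of that phosphatase, had a log2 fold change of -0.14 and overlapping groups. In all 0 of these 4 genes passed over all genes, and 3 had an unadjusted p under 0.05, which 12.5% of all genes had.

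**Figure D3:**
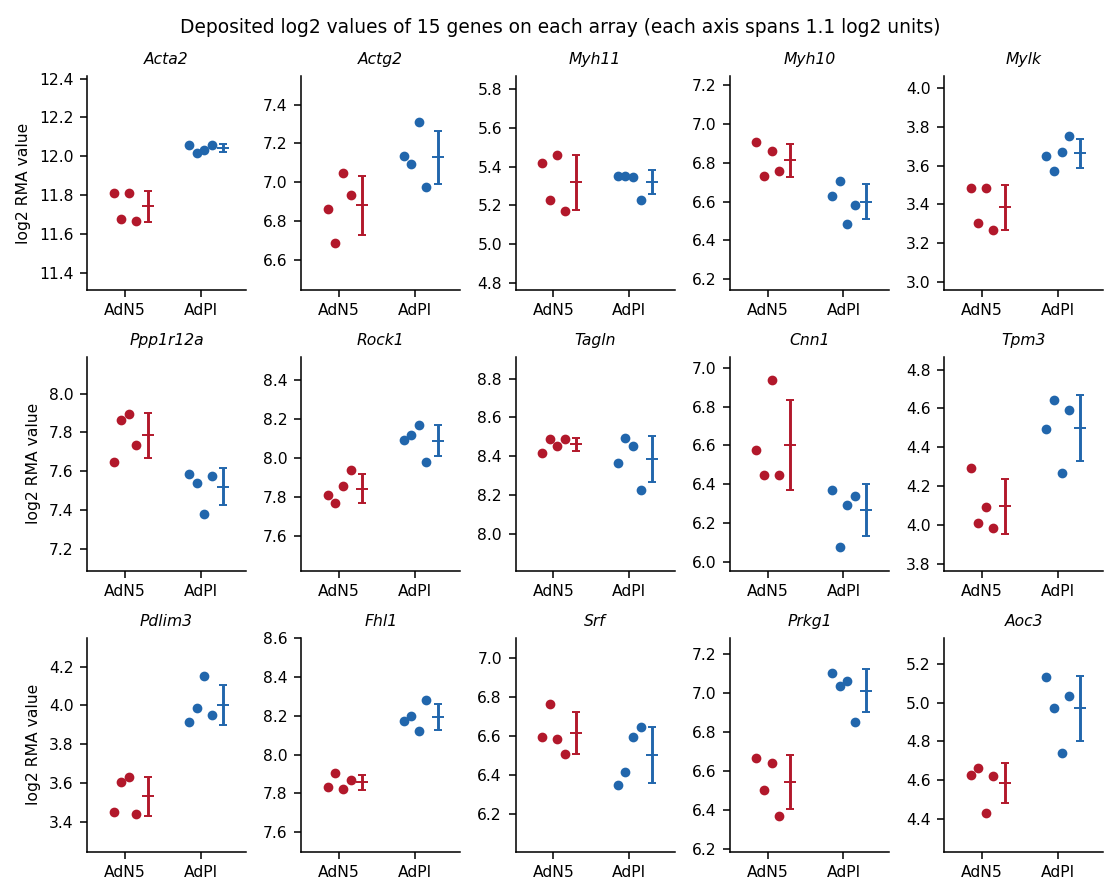
Deposited log2 RMA values of 15 genes on each array, AdN5-labelled arrays in red and AdPl arrays in blue, with bars for the mean and SD of 4 arrays; each axis spans the same 1.1 log2 units. Pdlim3, Prkg1, Fhl1, Acta2, Mylk, Rock1 and Aoc3 show separate groups with lower AdN5-labelled values. Myh10, Ppp1r12a and Cnn1 show separate groups with higher values, while Actg2, Tpm3, Myh11, Tagln and Srf overlap.

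Among the 10 proteins that bind thin filaments 0 passed, and the values spread to both sides, with 6 above 0 and 4 below. Tagln, which encodes the actin-bundling protein SM22-alpha, was at 8.42, 8.49, 8.45 and 8.49 in the AdN5-labelled arrays, against 8.37, 8.49, 8.45 and 8.23 in the AdPl arrays. The groups overlapped, with a difference of 0.077 ± 0.080 (SE; adjusted p = 0.765 in limma), or 0.024 without AdPl replicate 4. Cnn1, calponin 1, an actin-binding inhibitor of the myosin ATPase, was at 6.58, 6.45, 6.94 and 6.45 in the AdN5-labelled arrays, against 6.37, 6.07, 6.29 and 6.34 in the AdPl arrays. All AdN5-labelled values were above all AdPl values, and AdN5 replicate 3 was the highest. The difference was 0.33 ± 0.12 (SE; adjusted p = 0.296 in limma), and without AdN5 replicate 3 it was 0.22. Tpm3, a tropomyosin that is also made in non-muscle cells, was at 4.30, 4.01, 4.09 and 3.98 in the AdN5-labelled arrays, against 4.50, 4.64, 4.27 and 4.59 in the AdPl arrays. AdN5 replicate 1 lay above AdPl replicate 3, and the difference was -0.40 ± 0.11 (SE; adjusted p = 0.161 in limma). The other tropomyosins, which lie along the actin filament and govern its access to myosin, had log2 fold changes of -0.074 (Tpm1), 0.12 (Tpm2) and -0.024 (Tpm4). Caldesmon, Cald1, had a log2 fold change of 0.078 (unadjusted p = 0.258), with groups that did not overlap. Lmod1, a leiomodin that nucleates actin filaments, had a log2 fold change of 0.17, smoothelin, Smtn, of 0.013 and the calponin Cnn2 of -0.050.

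Of the 3 intermediate filament genes 0 passed, and 0 had an unadjusted p under 0.05. Vim, vimentin, the intermediate filament protein of mesenchymal cells, was at 12.47, 12.51, 12.51 and 12.55 in the AdN5-labelled arrays, against 12.55, 12.55, 12.55 and 12.55 in the AdPl arrays. It held the same value on 4 AdPl arrays and on AdN5 replicate 4. The sorted values of the arrays were nearly the same, so equal values are equal ranks, here near the top, at a level percentile of 99.95. Its difference and spread are therefore those of ranks near the top of each array. Its difference was -0.042 ± 0.065 (SE; adjusted p = 0.857 in limma). Synm, synemin, which links these filaments to adhesion sites, was at 4.38, 4.38, 4.33 and 4.69 in the AdN5-labelled arrays, against 4.51, 4.32, 4.26 and 4.51 in the AdPl arrays. AdN5 replicate 4 was the highest array, and the difference was 0.044 ± 0.10 (SE; adjusted p = 0.913 in limma). Des, desmin, the filament of differentiated muscle, had a log2 fold change of -0.019. All 3 genes had 95% intervals within 1.5-fold in either direction.

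The 10 proteins of dense bodies, LIM domains and actin cross-links included the called gene. Pdlim3 (Entrez 53318) was at 3.45, 3.61, 3.63 and 3.44 in the AdN5-labelled arrays, against 3.92, 3.99, 4.15 and 3.95 in the AdPl arrays. The groups were apart by more than the spread within either, with means of 3.53 ± 0.10 in the AdN5-labelled arrays and 4.00 ± 0.10 in the AdPl arrays (SD, n = 4 each). The difference was -0.47 ± 0.085 (SE; adjusted p = 0.0450 in limma). All 4 AdN5-labelled values lay below the array median of 3.76 and all 4 AdPl values above it. The call did not survive leaving out any 1 of the 8 arrays (adjusted p 0.0822 to 0.121), the variance trend with robust estimation (0.0625), or the removal of AdN5 replicate 4 and AdPl replicate 3 (0.196). With 1 array left out the Pdlim3 difference ran from -0.50 to -0.42. Fhl1, a four-and-a-half-LIM protein of muscle, was at 7.83, 7.91, 7.82 and 7.87 in the AdN5-labelled arrays, against 8.17, 8.20, 8.12 and 8.28 in the AdPl arrays. Its groups did not overlap and had SDs of 0.039 and 0.067 (n = 4 each). The difference was -0.34 ± 0.070 (SE; adjusted p = 0.0757 in limma). It passed among genes above the lower quartile (0.0449), among genes above the median (0.0161) and with a variance trend and robust estimation (0.00189). The fit without filter or trend, not passed with all 8 arrays, gave 0.108 to 0.206 with 1 array left out. Actn1, an alpha-actinin that cross-links actin at dense bodies and adhesions, was at 10.86, 10.82, 10.90 and 10.89 in the AdN5-labelled arrays, against 10.63, 10.71, 10.67 and 10.62 in the AdPl arrays. All AdN5-labelled values were above all AdPl values, by 0.21 ± 0.067 (SE; adjusted p = 0.232 in limma), and it passed with a variance trend and robust estimation (0.00188). The log2 fold changes of the remaining genes of this role ran from -0.12 (Pdlim5) to 0.15 (Nexn, an actin-binding protein). Between them were the LIM cofactor Fhl2 (-0.094), Pdlim7 (-0.0018), the LIM protein Csrp1 (0.022), the actin-bundling Synpo2 (0.027) and the second alpha-actinin Actn4 (0.046).

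Adhesion proteins and integrins had 0 genes past the threshold and 0 of 7 at an unadjusted p under 0.05. Zyx, zyxin, a LIM protein of focal adhesions that responds to tension, was at 9.05, 9.04, 9.13 and 9.01 in the AdN5-labelled arrays, against 9.19, 9.28, 9.17 and 9.15 in the AdPl arrays. The groups did not overlap, yet the difference was -0.14 ± 0.070 (SE; adjusted p = 0.450 in limma). Itga7, a laminin-binding integrin chain of muscle, was at 4.03, 3.81, 3.88 and 3.91 in the AdN5-labelled arrays, against 4.07, 4.14, 4.13 and 3.81 in the AdPl arrays. Its groups overlapped, at -0.13 ± 0.095 (SE; adjusted p = 0.632 in limma). The actin cross-linker Flna had a log2 fold change of 0.13, and the integrin chain Itga8 of 0.028. The adhesion adaptors had log2 fold changes of -0.023 (vinculin, Vcl), -0.036 (talin 1, Tln1) and -0.13 (tensin 1, Tns1). All 7 intervals lay within 1.5-fold in either direction.

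Neither of the factors of this programme passed, and neither had an unadjusted p under 0.05. Srf was at 6.60, 6.76, 6.59 and 6.51 in the AdN5-labelled arrays, against 6.35, 6.42, 6.60 and 6.65 in the AdPl arrays. AdN5 replicate 2 was the highest array and AdPl replicate 1 the lowest, with overlap between the groups and a difference of 0.11 ± 0.095 (SE; adjusted p = 0.701 in limma). It was 0.062 without AdN5 replicate 2 and 0.060 without AdPl replicate 1. Myocd, which encodes the myocardin cofactor, was dim, at 3.03, 3.32, 3.32 and 3.42 in the AdN5-labelled arrays, against 3.23, 3.42, 3.20 and 3.35 in the AdPl arrays. The groups overlapped, and the difference was -0.026 ± 0.10 (SE; adjusted p = 0.953 in limma). The 7 genes with a CArG box in their windows had log2 fold changes from -0.34 (Fhl1) to 0.11 (Srf), 2 above 0 and 5 below, with a median of -0.023. The other 34 measured genes with a window had 18 above 0 and 16 below, with a median of 0.013. Acta2, with its near matches, was among these 34, and Tagln, Myh11 and Actg2 had no window. The split by exact boxes therefore does not sort the genes by SRF binding. Of the genes whose windows held a TonE, Tpm3 had a log2 fold change of -0.40 and Tpm1 of -0.074.

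Among the regulators of calcium and cGMP, Prkg1 was lower in the AdN5-labelled arrays and narrowly missed the threshold. It encodes cGMP-dependent protein kinase 1, through which nitric oxide relaxes vessels. Its values were 6.66, 6.50, 6.64 and 6.37 in the AdN5-labelled arrays, against 7.10, 7.04, 7.06 and 6.85 in the AdPl arrays. The groups did not overlap, and the AdN5-labelled level was 0.722 of the AdPl level. The difference was -0.47 ± 0.094 (SE; adjusted p = 0.0666 in limma), which passed among genes above the lower quartile (0.0456), among genes above the median (0.0207) and with a variance trend and robust estimation (0.00457), but not with any 1 array left out (0.100 to 0.190). Kcnmb1, the smooth muscle subunit of the calcium-activated potassium channel that limits constriction, was dim, at 4.01, 3.78, 3.80 and 4.03 in the AdN5-labelled arrays, against 3.24, 3.98, 3.46 and 3.59 in the AdPl arrays. AdPl replicate 2 lay within the AdN5-labelled values, and the difference was 0.34 ± 0.15 (SE; adjusted p = 0.396 in limma). It was 0.23 without AdPl replicate 1 and 0.47 without AdPl replicate 2. Pln, the brake of the calcium pump of the sarcoplasmic reticulum, had a log2 fold change of -0.28, and the calcium store protein Casq2 of 0.061, both dim. Rgs5, which shortens G protein signals and marks arterial smooth muscle and pericytes, had a log2 fold change of 0.014.

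Of the surface markers, Aoc3, a vascular amine oxidase, was at 4.63, 4.66, 4.43 and 4.62 in the AdN5-labelled arrays, against 5.13, 4.97, 4.74 and 5.03 in the AdPl arrays. The groups did not overlap, and the difference was -0.38 ± 0.10 (SE; adjusted p = 0.151 in limma). Mcam, an adhesion molecule of vascular cells also called CD146, was at 5.20, 5.35, 5.53 and 5.17 in the AdN5-labelled arrays, against 5.14, 5.15, 5.12 and 5.36 in the AdPl arrays. Here the groups overlapped, at 0.12 ± 0.10 (SE; adjusted p = 0.705 in limma), or 0.046 without AdN5 replicate 3.

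**Figure D4:**
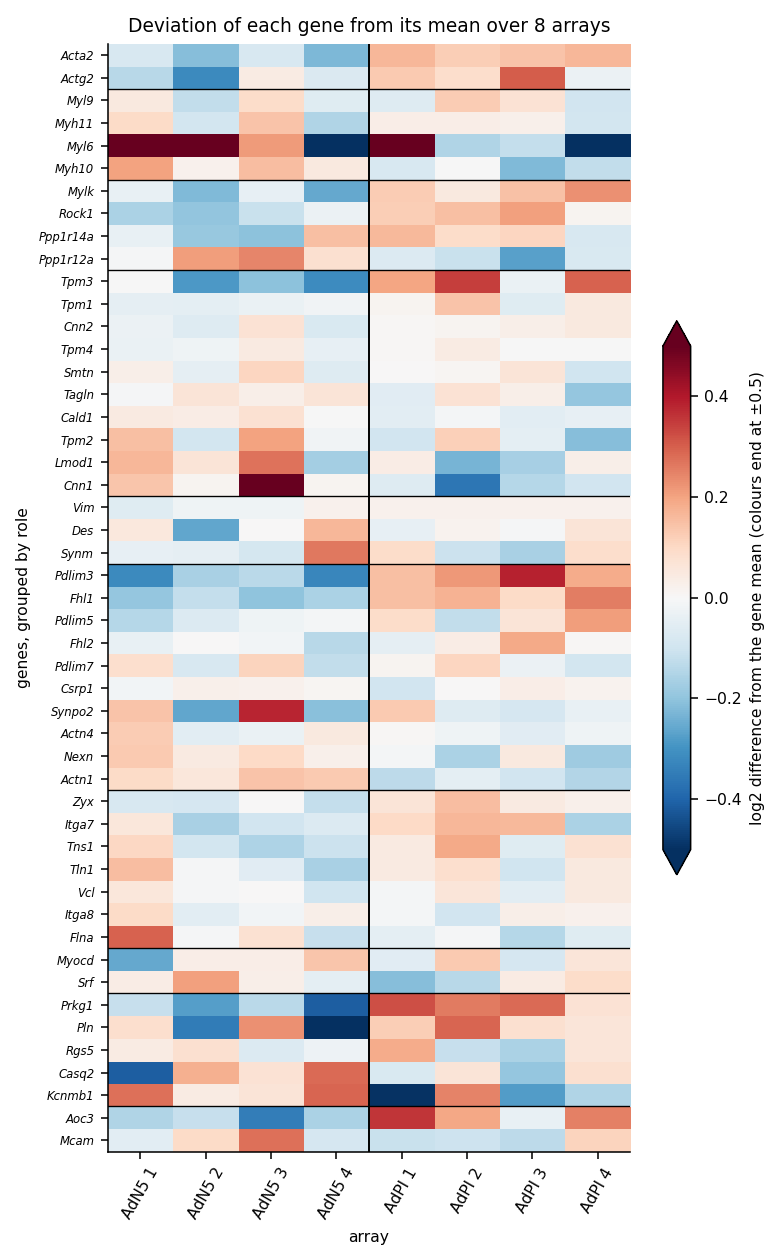
Difference of each log2 RMA value from the gene's mean over 8 arrays, for the 49 genes grouped by role (horizontal lines) on the AdN5-labelled arrays (left) and the AdPl arrays (right). Acta2, Fhl1, Pdlim3 and Prkg1 differ in colour between the groups, and Tpm3 and Aoc3 do so on most arrays. Myl6 runs past the ends of the colour scale within both groups, and most other rows are pale.

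Genes of the same machinery outside the list were counted in the same way. Of 88 further genes 79 were measured, in 4 lists, and 0 were called in limma in either direction, while 18 (22.8%) had an unadjusted p under 0.05, with 9 higher and 9 lower, against 12.5% of all genes and 17.4% of those above the median level. Among 17 SRF cofactors and other smooth muscle transcription factors the median log2 fold change was -0.013, and the ends were Nkx3-2 (0.30) and the Notch target Heyl (-0.32), both dim. For 20 genes of actin turnover it was -0.0053, from the filament-severing Cfl2 (0.17) to profilin 1, Pfn1 (-0.20). For 21 genes of calcium handling, contractile receptors and cGMP it was -0.016. The ends there were Gucy1b1, a subunit of the guanylate cyclase that senses nitric oxide and makes cGMP, and the calcium release channel Itpr2 (-0.29). Gucy1b1 had a difference of 0.44 ± 0.11 (SE; adjusted p = 0.122 in limma). For 21 genes of integrins and focal adhesions it was -0.026, with the integrin chain Itgav at the upper end and the talin Tln2 (-0.30) at the lower. Itgav had a difference of 0.44 ± 0.092 (SE; adjusted p = 0.0741 in limma). Gucy1b1 and Prkg1, which act in sequence in the cGMP pathway, thus had differences of opposite sign, at 0.44 and -0.47, neither past the threshold.

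The mean of the 49 genes on an array was 6.81 to 6.92 in the AdN5-labelled arrays and 6.88 to 6.93 in the AdPl arrays, which overlapped. Of the marker lists of other cells, those of macrophages and fibroblasts held called genes, 3 of 10 and 1 of 9, against 0.777% of all genes. Macrophage markers averaged 5.97 to 6.17 on the AdN5-labelled arrays and 5.55 to 5.79 on the AdPl arrays. Of them 10 of 10 had log2 fold changes above 0, against 12607 of all 24704 genes, and 1 lay below the array median. In limma Adgre1 (0.68, adjusted p = 0.00884), Laptm5 (0.53, 0.0284) and Cd68 (0.52, 0.0334) rose, 7 did not pass, and the lower end was Cd14 (0.11). Fibroblast or adventitial markers averaged 5.67 to 5.90 on the AdN5-labelled arrays and 6.11 to 6.15 on the AdPl arrays. Of them 7 of 9 measured genes had log2 fold changes below 0, against 12097 of all 24704, and 2 lay below the array median. Ly6c1 fell (-1.24, adjusted p = 0.0468 in limma), 8 did not pass, and the upper end was Clec3b (0.061). Ly6c1 was 1 of the 2 dim genes, with an SD of 0.50 in the AdN5-labelled arrays (n = 4). The median log2 fold change of these 9 genes was -0.17. The part of the macrophage and fibroblast or adventitial markers in the differences of Pdlim3, Prkg1, Fhl1 and Acta2 was not tested. In RNA of whole cultures, fewer cells of a type and less RNA per cell cannot be told apart.

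**Figure D5:**
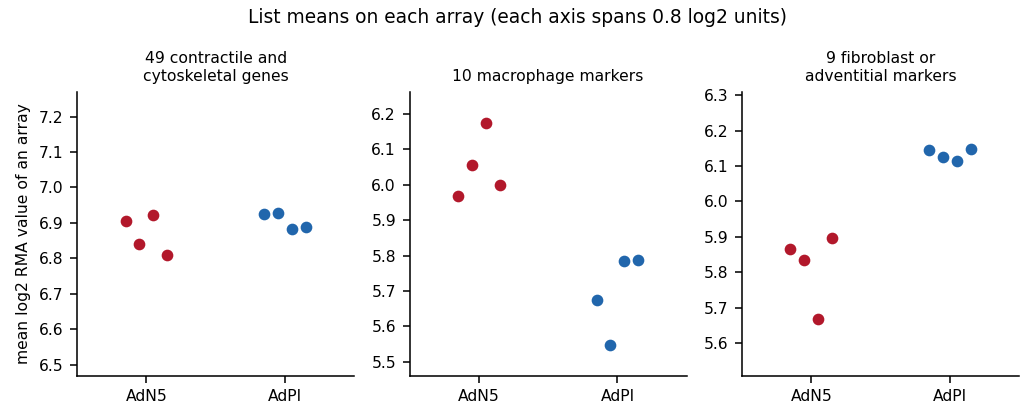
Mean log2 RMA value on each array of the 49 contractile and cytoskeletal genes, of 10 macrophage markers and of 9 fibroblast or adventitial markers, with AdN5-labelled arrays in red and AdPl arrays in blue on axes of the same span. The contractile means overlap between the groups (6.81 to 6.92 against 6.88 to 6.93), while the macrophage means are higher and the fibroblast means lower in the AdN5-labelled arrays.

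Markers of striated muscle, which shares part of the apparatus, averaged 3.29 to 3.36 on the AdN5-labelled arrays and 3.32 to 3.40 on the AdPl arrays. Of these 15 genes 11 lay below the array median, and 0 were called, with 1 at an unadjusted p under 0.05. The ends were the fast myosin genes Myh1 (0.24) and Myh2 (-0.33). The 8 pericyte markers, Rgs5 among them, had a median of 0.024 with 0 called and 3 at an unadjusted p under 0.05, from Notch3 (0.33) to Vtn (-0.37). The 10 endothelial markers had a median of -0.039 with 0 called and 2 at an unadjusted p under 0.05, from Cdh5 (0.35) to Egfl7 (-0.31). An unadjusted p under 0.05 was found for 12.5% of all genes and for 17.4% of those above the median level.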

How the data were processed

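Total RNA of 8 samples was measured on 1-colour Affymetrix arrays, 4 per group, placed by title with replicates 1 to 4. The authors deposited log2 values. The submitters' processing notes name RMA. RMA corrects background, quantile normalises arrays and summarises probe sets. A shift of all genes could therefore not be seen. Sorted values differed between arrays by at most 0.00183. The table held 25428 probe sets keyed by Entrez identifier. The supplied probe table gave 1 symbol for 24705, several for 0 and none for 723, which stay unnamed. The brightest probe set of a symbol was used, and no filter was applied. The sources used here name no build or annotation.

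Groups were compared by a two-sided test without covariates in limma 3.58.1 (R 4.3.3), with Benjamini-Hochberg adjustment over 24704 genes. The fit was tested on simulated data. Errors are SEs of fold changes or SDs over 4 arrays. Figures used Python 3.11.15 and matplotlib 3.10.9. Promoters came from RefSeq.

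Members and lists were chosen with earlier results of these data known. Values per array are given for the 2 members of largest change in each of 10 roles, members with an unadjusted p under 0.01 and the defining genes Acta2, Myh11, Tagln, Cnn1, Myocd and Srf, and for Actn1 and Pln, added after their values were seen; in other lists the ends and called genes are named. 1 further gene list is not reported here. Alternatives were the replicate block, median centring, renewed quantile normalisation, 2 filters, array weights, each array left out, and a variance trend with robust estimation. The removal of 2 arrays together was chosen after seeing the data.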

Additional observations from a re-analysis of the deposited data

Results flagged for a closer look

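In 3 of 100 groups of 4 arrays (49 genes and Nfat5, 2 groups each) 1 array lay far from the other 3 by Dixon's test at its 95% critical value, where chance gives about 1 in 20. The AdPl group of Vim, with the same value on all 4 arrays, could not be tested. For Myh11 it was AdPl replicate 4, at 5.23 with the others at 5.35. For Synm it was AdN5 replicate 4, at 4.69 with the others at 4.33 to 4.38. For Mcam it was AdPl replicate 4, at 5.36 with the others at 5.12 to 5.15.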

How the results depend on the processing

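The count of called contractile genes, 1 of 49, and that of all called genes, 192, depended on the fit. Under the replicate block they were 0 and 14. Among genes above the lower quartile 3 contractile genes were called (Pdlim3, Fhl1, Prkg1), with 274 genes in all. Among genes above the median 4 were (these and Acta2), with 497 genes in all. Pdlim3 passed that filter narrowly, through its AdPl values, so its call there adds no support. With a variance trend and robust estimation 5 were (Acta2, Rock1, Fhl1, Actn1, Prkg1), with 781 in all. Without AdN5 replicate 4 and AdPl replicate 3 the counts were 0 and 30. With 1 array left out, without filter or trend, they were 0 to 0 and 56 to 88. Median centring, renewed quantile normalisation and array weights kept Pdlim3 as the call. A filter changes the number of genes adjusted over, and limma also estimates its shared variance anew from the genes kept. These parts were not separated, and for the other settings the cause was not tested.

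The labels do not say whether same-numbered arrays belong together. Same-numbered deviations from the group means correlated at 0.055, 0.051, -0.079 and -0.047. Of the 4 AdN5-labelled arrays 1 correlated best with its own number. These values show no strong shared deviation, but they cannot exclude a pairing by culture or day. The block took Pdlim3 to an adjusted p of 0.125.

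Under the replicate block, the filters and the variance trend a fold change stays the same by construction, so its sign could not change there. The 23 members named by the rule kept their sign under the alternatives, these included, in 351 of 366 values. The exceptions fell in 4 genes: Myh11 (-0.048 to 0.048 with an array left out, 0.0094 with array weights, 0.057 without the 2 arrays together), Synm (-0.036 to 0.081; -0.083 without both), Myl6 (-0.13 to 0.51) and Myocd (-0.076 to 0.055, and -0.11 without both, where its sign was kept). The 8 arrays and the dimness of 7 genes limit what could be seen.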

Other observations

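A principal component analysis of the 49 genes alone gave a first component with 37.5% of their variance and a second with 32.5%. The first was carried by Myl6 (weight -0.83), with Pln (-0.23) next, and followed no group, with AdN5 replicate 4 at 1.62 and AdPl replicate 1 at -0.99 as its ends. On the second the AdN5-labelled arrays lay between 0.32 and 0.86 and the AdPl arrays between -0.74 and -0.47.

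After Myl6 the genes with the largest SD within a group were Pln (0.35), Kcnmb1 (0.31), Casq2 (0.31), Synpo2 (0.30) and Cnn1 (0.23). Pln was at 3.01, 2.58, 3.16 and 2.42 in the AdN5-labelled arrays, against 3.06, 3.22, 3.01 and 2.99 in the AdPl arrays, with AdN5 replicates 2 and 4 at the low end.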
